A study of Mus musculus with 12 samples.

Results

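Myeloid-derived suppressor cells (MDSCs) of 2 subsets were sorted from the same kind of mouse liver tumor, and the change of each gene under CXD101 in one subset was set against its change in the other. M-MDSCs are the monocytic subset and PMN-MDSCs the polymorphonuclear subset, which is close to neutrophils. For each gene the difference of differences was the PMN-MDSC change minus the M-MDSC change, each change being CXD101 minus vehicle on log2(FPKM + 1), where FPKM is the fragment count scaled to the length of the transcript and to the depth of the library. A positive difference means a higher response in PMN-MDSCs and a negative one a higher response in M-MDSCs. Of the 12 libraries of the series, 8 entered the comparison: 2 each of vehicle-treated M-MDSCs, CXD101-treated M-MDSCs, vehicle-treated PMN-MDSCs and CXD101-treated PMN-MDSCs. Of the 24346 gene symbols in the files, 11351 reached 1 FPKM in 2 or more of these 8 libraries, and all of them were tested.

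All groups shared the host and the tumor. Hepa 1-6 cells, a mouse hepatoma line, were implanted in the liver of female wild-type C57BL/6 J mice that were 6 to 8 weeks old, and mice entered the study when MDSCs exceeded 20% of blood cells. CXD101 at 5 mg/kg or vehicle was injected into the peritoneum every day for 10 days from day 10 after inoculation, and tumors were taken on day 21. This schedule comes from the study's methods, which describe sequencing of M-MDSCs and do not describe the PMN-MDSC libraries. Cells were sorted as CD11b+ Ly-6C high Ly-6G- (M-MDSCs) or CD11b+ Ly-6C int Ly-6G+ (PMN-MDSCs). The study describes the replicates of its MDSC RNA sequencing as biological, while the labels do not say which mice the libraries came from, so the p-values below measure the spread between these libraries.

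CXD101 inhibits the class I histone deacetylases HDAC1, HDAC2 and HDAC3. These enzymes remove acetyl groups from histone tails and from other proteins as parts of corepressor complexes, and their inhibition is known to raise some genes and to lower others in a way that depends on the cell type. Granulocytes make their granule proteins in sequence as they mature: primary granule proteases in early precursors, secondary granule proteins such as lactoferrin in later ones, and tertiary granule enzymes later still. Monocytes in tumors can turn into macrophages, with high levels of chemokines, scavenger receptors and lysosomal enzymes.

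The spacing of low FPKM values gave an estimated depth of 8990000 to 9560000 reads in M-MDSCs and 7260000 to 8220000 in PMN-MDSCs. S100a8 and S100a9 together held 1.78 to 1.95% of the summed FPKM in M-MDSCs with vehicle and 3.58 to 3.69% with CXD101, against 10.2 to 13.7% and 28.7 to 30.9% in PMN-MDSCs. The sorting markers were read where the files held them: Itgam, which encodes CD11b, stood with vehicle at 285 and 281 FPKM in M-MDSCs and 825 and 895 in PMN-MDSCs, and Ly6c2, a gene of the Ly-6C antigen, at 1360.2 and 1306 in M-MDSCs and 511 and 455 in PMN-MDSCs. Ly6g was not analysed here. Under CXD101 Ly6c2 rose in both subsets, to 2110.4 and 2041 in M-MDSCs and 1628 and 1418 in PMN-MDSCs, and it rose more in PMN-MDSCs (difference 1.01 ± 0.12 on the log2 scale, SE; limma with Benjamini-Hochberg adjustment, adjusted p = 0.00105). The RNA level of a marker used for the sort therefore differed between the treatments within each subset.

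PMN-MDSCs changed more genes under CXD101 than M-MDSCs did. A gene was called when limma gave an adjusted p-value under 0.05 and the fold change was above 1.5, the limits of the study's methods. In M-MDSCs 511 genes rose (4.5% of those tested) and 314 fell (2.77%). In PMN-MDSCs 1309 rose (11.5%) and 1086 fell (9.57%). Over all genes tested the median absolute change on the log2 scale was 0.166 for M-MDSCs, against 0.298 for PMN-MDSCs, and the median signed changes were -0.02 and -0.03. The difference between the subsets was called for 1589 genes (14% of those tested), with 822 higher in PMN-MDSCs (7.24%) and 767 lower (6.76%). The median standard error of a difference was 0.154, and the median difference was -0.006.

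The 1589 genes fell into classes by which change was called beside the difference. A change was called in PMN-MDSCs alone for 1038 genes (9.14% of those tested), of which 529 rose and 509 fell. A change was called in M-MDSCs alone for 118 genes (1.04%), of which 66 rose and 52 fell. In what follows, a change in 1 subset alone is one called only there, whatever the uncalled change in the other. In 95 genes that rose in both subsets and 37 that fell in both, the sizes differed, and the change was larger in PMN-MDSCs for 90 and 35 of them. In 294 genes the difference was called although neither change passed both limits. Opposite changes were called for 7 genes (0.0617%). This class needed calls in both subsets and in the difference, which is stricter than a change in 1 subset alone, so the counts are not like for like. On the adjusted p alone 110 genes were opposite, against 1792 called in PMN-MDSCs only and 258 in M-MDSCs only. Groups of sorted cells give bulk RNA, in which fewer cells of a type and less RNA per cell cannot be told apart.

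**Figure D1:**
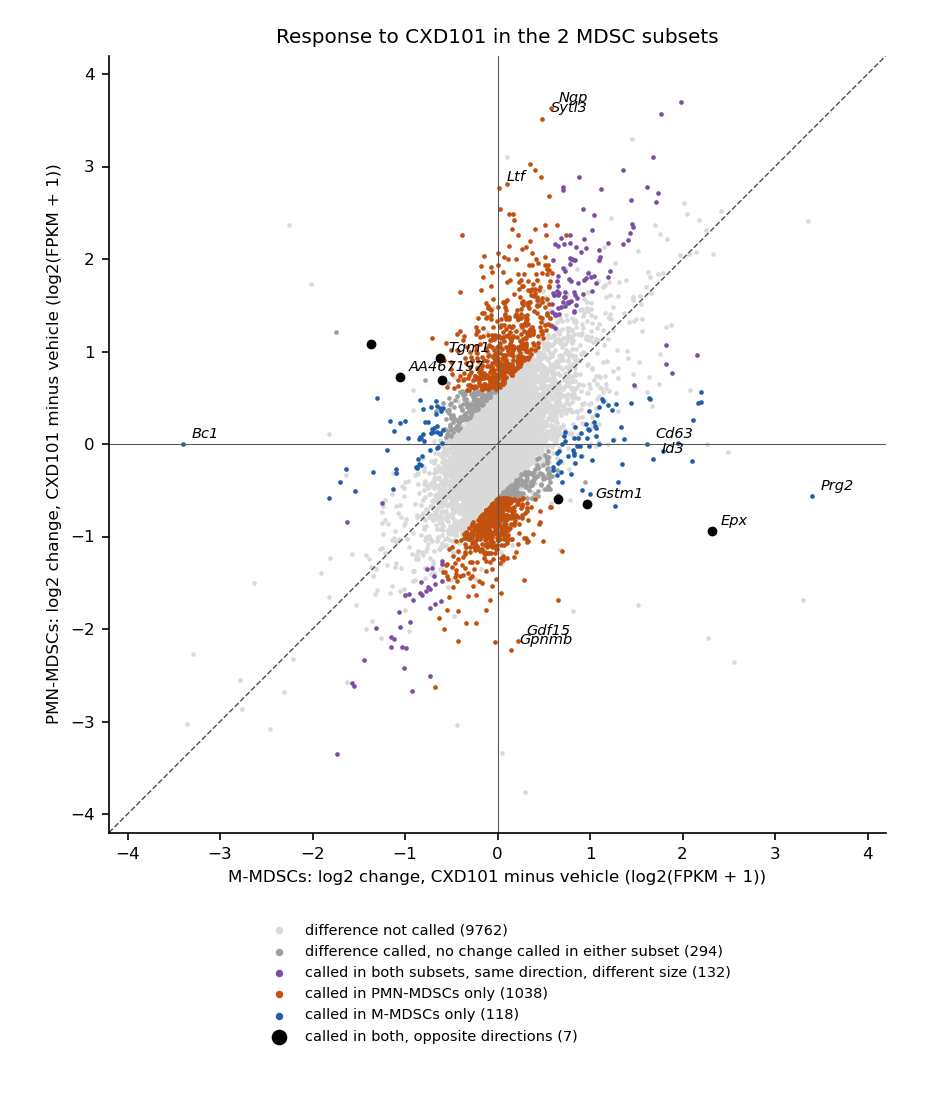
Log2 change under CXD101 in M-MDSCs (horizontal axis) and PMN-MDSCs (vertical axis), both CXD101 minus vehicle on log2(FPKM + 1), with 1 point per gene tested, coloured by which changes were called; the dashed line marks equal changes and 5 small RNAs lie beyond the axes. Points called in PMN-MDSCs only (1038) form bands above and below the centre, those called in M-MDSCs only (118) lie left and right of it, and the 7 opposite genes lie at the upper left and lower right.

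Of the 7 genes with opposite changes, 3 rose in M-MDSCs and fell in PMN-MDSCs (Gstm1, Ccnd1 and Epx) and 4 fell in M-MDSCs and rose in PMN-MDSCs (Tgm1, AA467197, Mthfs and AA413626). The most abundant of them was Gstm1, a glutathione S-transferase on the minus strand of chromosome 3 (108012255 to 108017973, GRCm38). Its FPKM was 142 and 149 with vehicle and 287 and 285 with CXD101 in M-MDSCs, and 559 and 532 with vehicle and 341 and 351 with CXD101 in PMN-MDSCs. All 4 CXD101 libraries lay outside the vehicle range of their subset, upward in M-MDSCs (0.97 on the log2 scale) and downward in PMN-MDSCs (-0.65), and the levels of the subsets, far apart with vehicle, came closer. The difference was -1.62 ± 0.08 (limma with Benjamini-Hochberg adjustment, adjusted p = 3.43e-05). Near-identical members of the glutathione S-transferase family may share reads with Gstm1.

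Ccnd1, which encodes cyclin D1, the partner of CDK4 and CDK6 in early G1, had the same pattern at lower levels. Its FPKM was 15.7 and 18.6 with vehicle and 25.6 and 29.4 with CXD101 in M-MDSCs, and 13.4 and 11.6 with vehicle and 7.76 and 8.14 with CXD101 in PMN-MDSCs. The groups did not overlap within either subset, with changes of 0.65 and -0.59 and a difference of -1.25 ± 0.16 (limma with Benjamini-Hochberg adjustment, adjusted p = 0.00165). Tgm1, which encodes the protein-crosslinking enzyme transglutaminase 1, went the other way. Its FPKM was 9.52 and 9.31 with vehicle and 5.16 and 6.44 with CXD101 in M-MDSCs, and 12.3 and 12.9 with vehicle and 24.5 and 25.2 with CXD101 in PMN-MDSCs, with no overlap between treatments in either subset. The changes were -0.62 and 0.93 and the difference 1.55 ± 0.15 (limma with Benjamini-Hochberg adjustment, adjusted p = 0.000536). AA467197, a gene that also hosts the microRNA gene Mir147 on its own strand, had FPKM values of 39.8 and 47.8 with vehicle and 24.2 and 17.4 with CXD101 in M-MDSCs, against 170.5 and 211 with vehicle and 298 and 329.8 with CXD101 in PMN-MDSCs (difference 1.78 ± 0.22). Mthfs, an enzyme of folate metabolism, had changes of the same signs (-0.60 in M-MDSCs and 0.70 in PMN-MDSCs), and its M-MDSC adjusted p of 0.0498 was just under the limit (limma, Benjamini-Hochberg). AA413626 was listed at 0 in both M-MDSC libraries with CXD101 and in both PMN-MDSC libraries with vehicle, and stayed under 3 FPKM elsewhere. It falls outside the rule for named genes and was chosen after its values were seen.

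Apart from 2 small RNAs, the lowest called differences were those of eosinophil granule genes, which rose in M-MDSCs. Prg2 encodes the eosinophil major basic protein (chromosome 2, plus strand, 84980461 to 84983632, GRCm38). Its FPKM was 10.6 and 6.56 with vehicle and 93.97 and 102 with CXD101 in M-MDSCs, and 34.5 and 34.7 with vehicle and 27.7 and 19.2 with CXD101 in PMN-MDSCs. In M-MDSCs the CXD101 mean was 11.4-fold the vehicle mean and the groups were far apart, whereas in PMN-MDSCs both CXD101 libraries lay below both vehicle libraries by a change of -0.57 that did not pass the fold limit. The difference was -3.96 ± 0.29 (limma with Benjamini-Hochberg adjustment, adjusted p = 0.000196). Epx, the eosinophil peroxidase, fell in PMN-MDSCs as well as rising in M-MDSCs. Its FPKM was 2.68 and 1.28 with vehicle and 12.2 and 14.8 with CXD101 in M-MDSCs, and 7.004 and 4.27 with vehicle and 2.48 and 2.27 with CXD101 in PMN-MDSCs, and the difference was -3.27 ± 0.35 (adjusted p = 0.000827).

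Over the list of 8 eosinophil markers tested, the difference was called lower for 5 and higher for 1, against 6.76% and 7.24% of all genes, and the median difference was -1.48. The 5 were Prg2, Epx, Prg3, Ear1 and Siglecf, and all of them rose in M-MDSCs. Siglecf, a sialic acid receptor of eosinophils and some macrophages, went from 1.403 and 2.25 to 6.15 and 6.28 FPKM in M-MDSCs but stood at 21.1 and 26.99 with vehicle and 23.7 and 25.9 with CXD101 in PMN-MDSCs. Alox15, a lipoxygenase of eosinophils and macrophages, was the one with a higher response in PMN-MDSCs. The summed FPKM of the whole list was 162 to 198 in M-MDSCs with vehicle and 384 to 412 with CXD101, and 343 to 379 and 469 to 495 in PMN-MDSCs, where Ear6 held the largest share. Ear and Rnase2 genes form a family of near-identical copies, so single members are uncertain. Whether the rise in M-MDSCs came with eosinophils or their precursors in the gate was not tested.

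**Figure D2:**
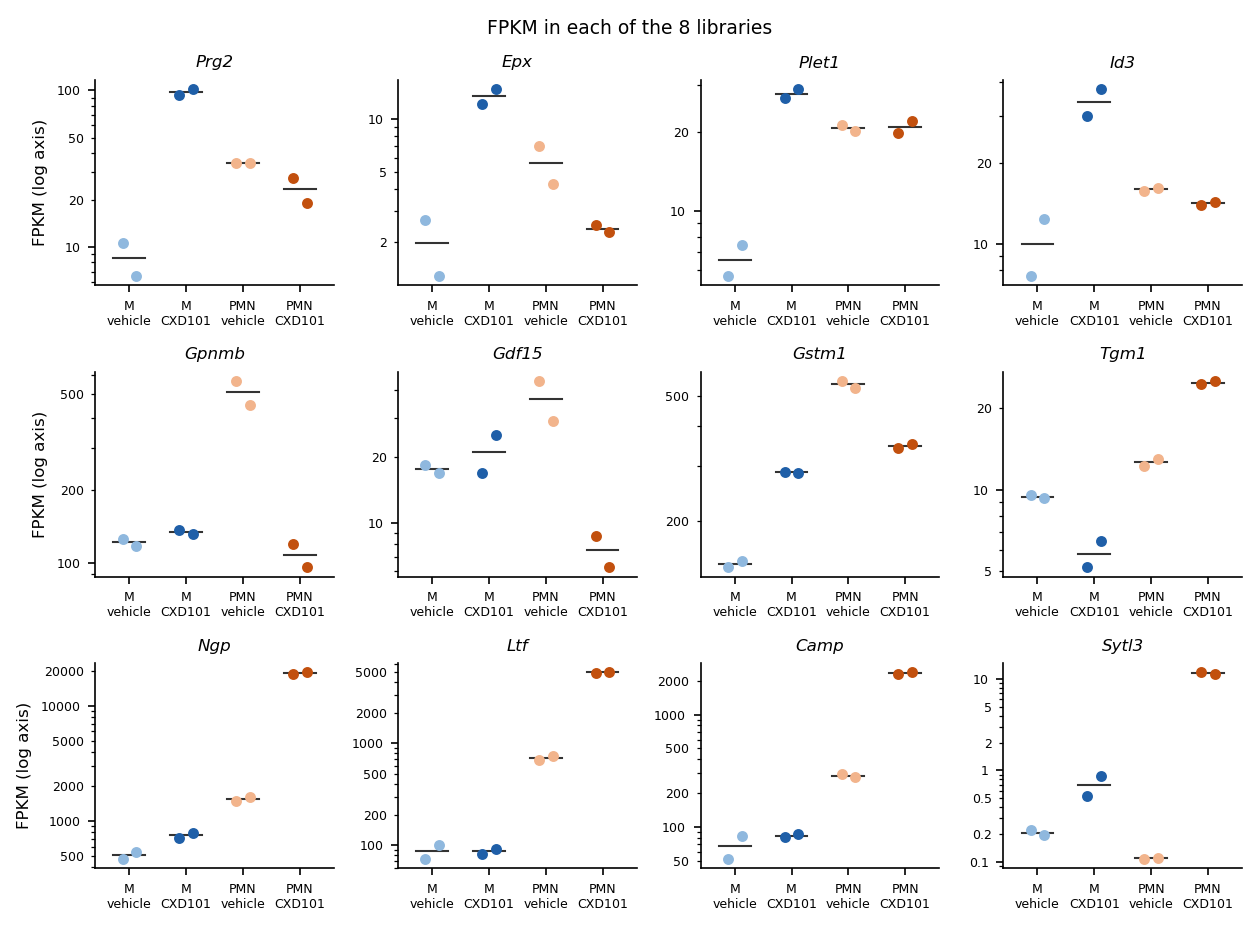
FPKM (log axes, a separate scale for each gene) in each of the 8 libraries for 12 genes, with points for libraries and a line at the group mean. Prg2, Epx, Plet1 and Id3 are higher with CXD101 in M-MDSCs and not in PMN-MDSCs, Gpnmb and Gdf15 are lower with CXD101 in PMN-MDSCs, Gstm1 and Tgm1 move in opposite directions, and Ngp, Ltf, Camp and Sytl3 stand highest in the PMN-MDSC libraries with CXD101.

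Other genes rose in M-MDSCs alone. Id3, an inhibitor of basic helix-loop-helix transcription factors, had FPKM values of 7.61 and 12.4 with vehicle and 29.8 and 37.5 with CXD101 in M-MDSCs and 15.7 and 16.2 with vehicle and 13.98 and 14.3 with CXD101 in PMN-MDSCs. The M-MDSC groups did not overlap, and the difference was -1.84 ± 0.26 (limma with Benjamini-Hochberg adjustment, adjusted p = 0.00243). Its relative Id2 had a difference of -0.79, with changes of 0.36 and -0.43. Mt2, a metallothionein that binds zinc and copper, rose from 25.3 and 30.01 to 93.3 and 102 FPKM in M-MDSCs and stood at 62.6 and 45.04 with vehicle and 55.7 and 45.7 with CXD101 in PMN-MDSCs, where the treatments overlapped. Plet1, a surface glycoprotein, rose from 5.67 and 7.43 to 26.9 and 28.97 in M-MDSCs, passing the range of the PMN-MDSC libraries (21.2 and 20.2 with vehicle and 19.7 and 22.01 with CXD101). Plet1 overlaps Plet1os on the other strand, and whether reads were counted by strand is not given in the sources used here.

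Primary granule genes are made by early precursors. Of 13 tested, 8 rose in M-MDSCs (4.5% of all genes did) and 4 in PMN-MDSCs (11.5%), and the difference was called lower for 2 (6.76%) and higher for 1 (7.24%). Without Vehicle_P replicate 2 the lower calls numbered 6. Cd63, a tetraspanin of granule membranes, had the lowest difference of them. Its FPKM was 89.1 and 90.8 with vehicle and 281 and 276 with CXD101 in M-MDSCs, and 678 and 653 with vehicle and 667 and 663 with CXD101 in PMN-MDSCs, so that the M-MDSC mean rose 3.098-fold while the PMN-MDSC treatments overlapped (difference -1.62 ± 0.07, limma with Benjamini-Hochberg adjustment, adjusted p = 3.25e-05). Srgn, the proteoglycan serglycin that packs granule proteases, was the other (difference -0.89). Among the proteases and peroxidase of these granules, Elane rose in M-MDSCs from 436 and 439.9 to 1659.9 and 1551 FPKM, Ctsg from 221 and 210.1 to 483 and 483 and Mpo from 298 and 257 to 777 and 777. Their differences of -0.59, -0.70 and -0.87 did not pass the test, and the vehicle PMN-MDSC libraries varied (Mpo 55.3 and 25.9). Serpinb1a, an inhibitor of neutrophil elastase, had the higher response in PMN-MDSCs, from 56.4 and 64.996 to 266 and 277 FPKM, against 136 and 136 to 226 and 205 in M-MDSCs.

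Of 14 stem and progenitor genes, 10 rose in M-MDSCs and 8 in PMN-MDSCs, against 4.5% and 11.5% of all genes, and the difference was called lower for 3 and higher for 2, against 6.76% and 7.24%. The lower calls came to 1 without Vehicle_M replicate 1, CXD101_M replicate 2 or CXD101_P replicate 2. Cd34, a surface marker of hematopoietic progenitors, had a called rise in M-MDSCs alone. In PMN-MDSCs its rise was not called, although both CXD101 libraries lay above both vehicle libraries. Its FPKM was 1.56 and 0.7898 with vehicle and 8.73 and 8.94 with CXD101 in M-MDSCs, and 2.81 and 2.56 with vehicle and 4.54 and 3.57 with CXD101 in PMN-MDSCs (difference -1.75 ± 0.25, limma with Benjamini-Hochberg adjustment, adjusted p = 0.00233). Kit, the receptor of stem cell factor, and Erg, an ETS transcription factor, rose in both and more in PMN-MDSCs: Kit from 16.2 and 16.6 to 47.7 and 48.9 there and from 3.86 and 3.38 to 7.18 and 7.48 in M-MDSCs. Gata2 and Sox4 had lower differences (-0.89 and -0.89) at FPKM values under 4 in every library, and both calls were lost under several alternatives.

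Genes with a called fall in M-MDSCs alone included receptors for microbial products and antibody. Of 15 Toll-like receptor and CD14 genes tested, 2 fell in M-MDSCs and 1 rose. Of 15 Fc and paired inhibitory receptors 2 fell and 2 rose, and of 17 neutrophil receptors 2 fell and 5 rose. Of all genes, 2.77% fell and 4.5% rose there. In the first list the difference was called higher for 2 and lower for 1, against 7.24% and 6.76% of all genes. The lower call was Cd180, with a called fall in PMN-MDSCs alone. Cd14, the coreceptor for lipopolysaccharide, had FPKM values of 23.9 and 28.2 with vehicle and 11.1 and 11.8 with CXD101 in M-MDSCs, and 122 and 109 with vehicle and 126 and 128 with CXD101 in PMN-MDSCs. The PMN-MDSC change of 0.14 was not called (difference 1.25 ± 0.13, limma with Benjamini-Hochberg adjustment, adjusted p = 0.000673). Tlr4, the signalling receptor for the same ligand, fell from 26.3 and 25.1 to 13.5 and 13.6 in M-MDSCs and had a difference of 0.62. Its estimate in PMN-MDSCs was a smaller fall that was not called. Fcgr1, the high-affinity IgG receptor, fell from 25.1 and 24.6 to 9.89 and 10.6 in M-MDSCs and stood at 24.1 and 23.1 with vehicle and 21.9 and 23.1 with CXD101 in PMN-MDSCs (difference 1.13). Clec4e, a lectin receptor for mycobacterial glycolipid, fell from 47.7 and 43.6 to 22.8 and 18.8 in M-MDSCs, with a difference of 0.83. As for Tlr4, the PMN-MDSC estimate was a smaller fall that was not called.

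Further genes with a called fall in M-MDSCs alone were a transcription factor, a hypoxia-response gene and a plasma protein. Bhlhe40, a repressor with roles in cytokine production, fell from 111 and 117 to 61.96 and 63.6 FPKM in M-MDSCs and stood at 256 and 283 with vehicle and 279.7 and 281 with CXD101 in PMN-MDSCs. Ankrd37, a target of hypoxia-inducible factor, fell from 9.22 and 9.62 to 3.05 and 1.76 in M-MDSCs, and Hp, which encodes haptoglobin, from 430.4 and 428 to 221 and 208. The noncoding RNA gene Bc1 had 9.36 and 9.71 FPKM in vehicle M-MDSCs and was listed at 0 in both CXD101 libraries of M-MDSCs and in all 4 libraries of PMN-MDSCs. Its difference is therefore set by the 2 vehicle M-MDSC libraries, and no fold is given.

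Of the 10 genes named for the highest differences, 3 encode secondary granule proteins. Ngp (neutrophilic granule protein), Ltf (lactoferrin) and Camp (cathelicidin) are antibacterial proteins of these granules, and all 3 lie on chromosome 9 of GRCm38, between 109847379 (Camp, minus strand) and 111042767 (Ltf, plus strand). The FPKM of Ngp was 470.1 and 544 with vehicle and 714 and 795 with CXD101 in M-MDSCs, and 1494 and 1625 with vehicle and 19038 and 19538 with CXD101 in PMN-MDSCs. The PMN-MDSC mean rose 12.4-fold, the M-MDSC mean stood 1.49-fold over its vehicle mean without passing the fold limit on the log2 scale, and the difference was 3.05 ± 0.12 (limma with Benjamini-Hochberg adjustment, adjusted p = 2.39e-05). Ltf stood at 73.3 and 102 with vehicle and 82.1 and 92.2 with CXD101 in M-MDSCs, and 693 and 760.0 with vehicle and 4945 and 4981 with CXD101 in PMN-MDSCs. The M-MDSC treatments overlapped, and the difference was 2.76 ± 0.19 (adjusted p = 0.000146). Camp went from 295 and 278 to 2299.9 and 2379.6 in PMN-MDSCs, against 51.8 and 82.8 with vehicle and 80.8 and 86.8 with CXD101 in M-MDSCs (difference 2.67 ± 0.24).

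Over the 17 secondary and tertiary granule genes, 12 had a called higher response in PMN-MDSCs and 0 a lower one (0 also at an unadjusted limma p under 0.05), against 7.24% and 6.76% of all genes, and the median difference was 1.14. In PMN-MDSCs 13 rose and 0 fell, and in M-MDSCs 4 rose and 2 fell. The 17 and the 12 include Cebpe, which is not a granule protein but the transcription factor that controls these granule genes in neutrophil precursors. Cebpe rose from 45.5 and 43.1 to 168 and 190.1 FPKM in PMN-MDSCs and from 22.7 and 25.8 to 31.7 and 43.7 in M-MDSCs (difference 1.39 ± 0.19, limma with Benjamini-Hochberg adjustment, adjusted p = 0.00216). Olfm4, Mmp25, Lcn2, Pglyrp1, Adam8, Cd177 and Padi4 were among the 12, with differences from 0.79 (Padi4) to 1.58 (Olfm4). Hp, named above, was also among the 12, with a change called only as a fall in M-MDSCs. Not every granule gene differed: Chil3 rose in both, with changes of 1.39 and 1.77, and Mmp8 with 1.02 and 1.30. Mmp9, the gelatinase of tertiary granules, fell in M-MDSCs from 7.27 and 10.4 to 4.32 and 4.95 and had 978 and 1144 with vehicle and 695 and 724 with CXD101 in PMN-MDSCs. The summed FPKM of the 17 genes was 3197 to 3271 and 5614 to 5932 in M-MDSCs and 10625 to 11515 and 48505 to 49173 in PMN-MDSCs with vehicle and CXD101. The list of 11 neutrophil markers shares Mmp8, Mmp9, Retnlg, Ngp, Camp, Ltf and Cd177 with these 17 genes, so the sums are not independent. It also holds S100a8 and S100a9. In PMN-MDSCs these alone made up 10.2 to 13.7% of all summed FPKM with vehicle and 28.7 to 30.9% with CXD101. The sum of the neutrophil list went from 71839.5 to 97850 with vehicle to 271296 to 297561 with CXD101 in PMN-MDSCs. The part of this list in the result was not tested.

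The stretches upstream of Ngp and Ltf are shown because a short motif that the choice of genes did not use recurs upstream of the list. Promoter entries were matched by symbol for 8702 of the 11351 genes. Sequences are from RefSeq promoters on GRCm38.p6, from 250 bases before the annotated start up to the first base that GENCODE places in the gene, 5′ to 3′ on the strand of the gene. Capitals mark matches on either strand to the C/EBP-type motif TTGCNNAA, a pattern that C/EBP factors are known to bind. The Ngp stretch is chr9:110419558-110419746 (plus strand, GRCm38.p6) and the Ltf stretch chr9:111019042-111019270 (plus strand, GRCm38.p6), where the match begins 75 bases before the start.
Ngp: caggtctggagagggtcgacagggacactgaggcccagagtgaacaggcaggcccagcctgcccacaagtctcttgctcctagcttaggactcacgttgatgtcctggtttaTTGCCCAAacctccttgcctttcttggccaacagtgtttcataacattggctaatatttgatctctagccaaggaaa
Ltf: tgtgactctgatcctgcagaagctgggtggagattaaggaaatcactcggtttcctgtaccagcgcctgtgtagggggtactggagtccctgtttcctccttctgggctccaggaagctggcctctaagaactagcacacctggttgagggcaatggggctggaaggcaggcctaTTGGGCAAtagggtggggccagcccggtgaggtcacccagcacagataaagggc
The motif was found within 250 bases upstream in 7 of the 14 granule genes with a listed promoter (50%) and in 800 of the 8702 tested genes with one (9.19%). Of the 10 with both a called higher response and a listed promoter, 4 held it (40%). Among all genes that rose in PMN-MDSCs alone the share was 10.1%, near that of all genes. No match was found in the Camp window. A match describes letters, not a binding site.

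Several genes at the high end of the difference were nearly silent without the drug. Sytl3, a synaptotagmin-like protein of vesicle trafficking on chromosome 17 (6659093 to 6738044, plus strand), had 0.107 and 0.1098 FPKM in vehicle PMN-MDSCs and 11.9 and 11.5 with CXD101, and stayed at 0.219 and 0.196 with vehicle and 0.522 and 0.869 with CXD101 in M-MDSCs. The difference was 3.04 ± 0.20 (limma with Benjamini-Hochberg adjustment, adjusted p = 0.000146), and Sytl3 overlaps Ezr on the other strand. Sema4f, a semaphorin, went from 0.222 and 0.396 to 8.72 and 7.61 in PMN-MDSCs and did not exceed 0.13 FPKM in M-MDSCs. Prss16, a serine protease known from the thymus, went from 0.461 and 0.296 to 6.58 and 7.5 in PMN-MDSCs, against 1.42 and 1.58 with vehicle and 1.45 and 1.64 with CXD101 in M-MDSCs. Bcl2l14, a member of the BCL2 family, and Lgals6, a galectin with a near-identical copy in Lgals4, rose in PMN-MDSCs to 6.82 and 9.54 and to 4.82 and 7.52 FPKM and had at most 1.06 FPKM in the other 6 libraries of the comparison. On this scale, changes of genes near 0 are understated.

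Of 9 calcium-binding S100 genes, 4 had a higher response in PMN-MDSCs and 0 a lower one (1 at an unadjusted limma p under 0.05, median difference 0.50), against 7.24% and 6.76% of all genes. The higher calls came to 2 without CXD101_P replicate 1. S100a6 went from 1920.2 and 2162 to 3996 and 3795 FPKM in PMN-MDSCs while M-MDSCs stayed at 498 and 507 with vehicle and 507 and 477 with CXD101 (difference 0.96). S100a9, an alarmin subunit, rose in both subsets and more in PMN-MDSCs (1.11 and 2.02). Its difference was 0.91, and that of its partner S100a8 was 0.50 and did not pass. Quantile normalization turned the difference of S100a8 to -1.38 and ended the calls of S100a6 (difference 0.41) and S100a9 (0.12). The call of S100a9 was also lost with no filter (limma with Benjamini-Hochberg adjustment, adjusted p = 0.0898). S100a5 was called on 2.93 and 0 FPKM with vehicle and 16.2 and 12.8 with CXD101 in PMN-MDSCs, and the call was lost under several alternatives. Of 7 NADPH oxidase genes, 2 had a higher response and 1 rose in PMN-MDSCs, against 7.24% and 11.5% of all genes. Cybb, the catalytic subunit of the phagocyte NADPH oxidase, had 199.7 and 209 FPKM with vehicle and 442 and 449 with CXD101 in PMN-MDSCs and 231 and 216 with vehicle and 172 and 172 with CXD101 in M-MDSCs (difference 1.5 ± 0.08, limma with Benjamini-Hochberg adjustment, adjusted p = 6.52e-05). The vehicle levels of the subsets lay close together and the CXD101 levels far apart.

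Transcription factors of myeloid cells split between the subsets. Of 27 tested, 5 had a higher response in PMN-MDSCs and 3 a lower one, against 7.24% and 6.76% of all genes. Gfi1, a repressor needed for granulocyte formation, rose in both, from 3.63 and 3.24 to 16.5 and 14.1 FPKM in PMN-MDSCs and from 12.5 and 13.9 to 31.2 and 32.98 in M-MDSCs. Its paralog Gfi1b rose in PMN-MDSCs alone, from 2.96 and 2.66 to 7.23 and 6.57, as did Nfe2, from 137 and 145 to 246 and 242. Zeb2, a zinc-finger factor of monocyte and dendritic cell fate, fell in PMN-MDSCs from 25.2 and 28.9 to 13.3 and 12.6 and had 20.1 and 20.1 with vehicle and 16.6 and 16.1 with CXD101 in M-MDSCs (difference -0.73). Spi1, the lineage factor PU.1, had a difference of 0.13 that did not pass, and Irf8 one of -0.50.

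Interferon-stimulated genes had a higher response in PMN-MDSCs. These genes carry out antiviral defence and are driven by type I interferon. Of 37 tested, 12 had a called higher response and 0 a lower one, against 7.24% and 6.76% of all genes. At an unadjusted limma p under 0.05, 2 were lower, and the median difference was 0.44. In PMN-MDSCs 14 rose and 2 (Mx1 and Phf11b) fell, against 11.5% and 9.57% of all genes. In M-MDSCs 2 rose (Dhx58 and Isg20) and 1 fell (Ifi27l2a), against 4.5% and 2.77%. Zbp1, a sensor of Z-form nucleic acid, had FPKM values of 21.2 and 22.5 with vehicle and 64.5 and 64.98 with CXD101 in PMN-MDSCs, and 16.7 and 17.9 with vehicle and 16.9 and 14.8 with CXD101 in M-MDSCs. The treatments were apart in PMN-MDSCs and overlapped in M-MDSCs (difference 1.65 ± 0.12, limma with Benjamini-Hochberg adjustment, adjusted p = 0.000189).

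The rise was uneven within the list. Irf7, the factor that amplifies interferon production, went from 12.9 and 12.9 to 33.6 and 32.02 FPKM in PMN-MDSCs and stood at 1.84 and 1.56 with vehicle and 1.71 and 2.17 with CXD101 in M-MDSCs. Cmpk2 and Rsad2, neighbouring genes on chromosome 12 that encode a nucleotide kinase and the antiviral enzyme viperin, went from 2.33 and 3.33 to 11.9 and 11.7 and from 0.942 and 2.0001 to 5.24 and 6.02 in PMN-MDSCs, and stayed under 2 FPKM in every M-MDSC library. Other members with a call were Slfn5, Samd9l, Rtp4, Oas3, Ifi27l2a, Ifitm3, Isg20 and Ddx58, with differences from 0.62 (Ddx58) to 1.5 (Slfn5). Other well-known members were not called: Isg15 had 8.32 and 9.803 FPKM with vehicle and 9.26 and 16.2 with CXD101 in PMN-MDSCs (difference 0.09), and Ifit1 had a difference of 0.13. Mx1 fell in PMN-MDSCs, from 2.92 and 2.71 to 0.795 and 1.06.

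The stretches upstream of Rsad2 and Cmpk2 are given because the genes are neighbours with differences of 1.54 and 1.52 and are unlike in the motif searched. They come from RefSeq promoters as above, on GRCm38.p6, at chr12:26456453-26456702 (minus strand) for Rsad2 and chr12:26468965-26469203 (plus strand) for Cmpk2, and capitals mark matches on either strand to an ISRE-type motif, GAAA repeated after 2 further bases of any kind, a pattern of interferon-response elements. The Rsad2 match begins 120 bases before the start, and no match was found in the Cmpk2 window.
Rsad2: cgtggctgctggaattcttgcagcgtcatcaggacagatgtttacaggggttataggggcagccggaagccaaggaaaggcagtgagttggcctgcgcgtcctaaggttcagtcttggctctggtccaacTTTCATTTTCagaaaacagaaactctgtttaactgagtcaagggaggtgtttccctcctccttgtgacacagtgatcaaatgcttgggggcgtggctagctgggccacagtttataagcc
Cmpk2: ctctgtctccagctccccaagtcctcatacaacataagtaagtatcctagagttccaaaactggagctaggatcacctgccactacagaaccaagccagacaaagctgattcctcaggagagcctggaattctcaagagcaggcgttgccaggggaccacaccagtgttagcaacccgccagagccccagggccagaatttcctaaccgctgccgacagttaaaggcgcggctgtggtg
The motif was found upstream of 10 of the 26 interferon-stimulated genes with a listed promoter (38.5%) and of 286 of the 8702 tested genes (3.29%). It was found in 3 of the 9 with a higher response in PMN-MDSCs (33.3%), and in 3.69% of all genes that rose in PMN-MDSCs alone.

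**Figure D3:**
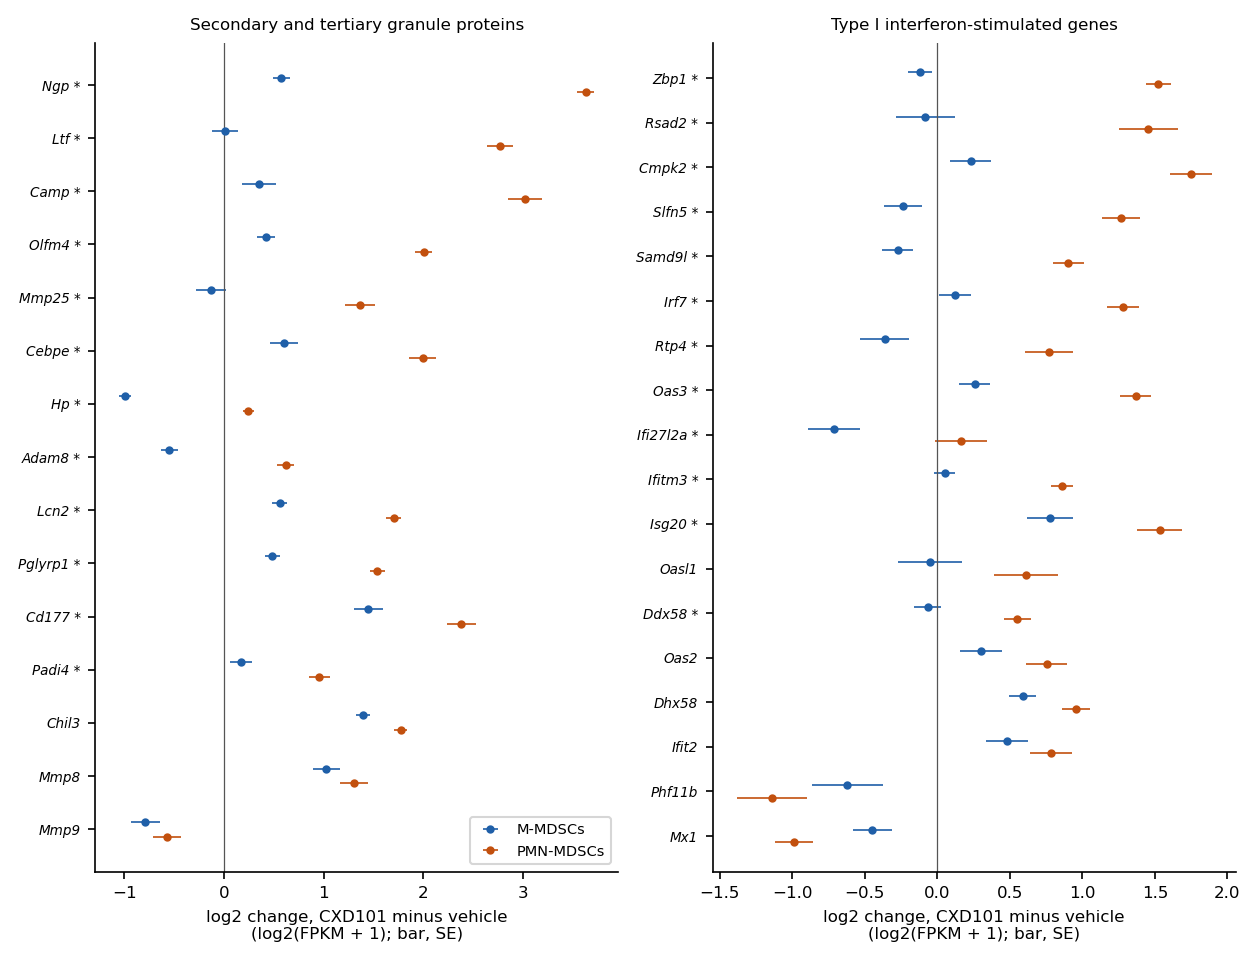
Log2 change under CXD101 (horizontal axis, log2(FPKM + 1); bars, SE) in M-MDSCs (blue) and PMN-MDSCs (orange) for the 15 secondary and tertiary granule genes and the 18 interferon-stimulated genes with a called change or difference, ordered by their difference; an asterisk marks a called difference. Orange points lie to the right of blue ones for all 15 granule genes and for 16 of the 18 interferon-stimulated genes shown.

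Several of the lowest differences were falls in PMN-MDSCs. Gpnmb, a transmembrane glycoprotein of lipid-laden macrophages, fell in PMN-MDSCs alone. Its FPKM was 126 and 117 with vehicle and 137 and 131 with CXD101 in M-MDSCs, and 568 and 452 with vehicle and 119.9 and 95.6 with CXD101 in PMN-MDSCs. In M-MDSCs the change of 0.14 was not called, while the PMN-MDSC mean fell to 0.211 of its vehicle level (difference -2.37 ± 0.18, limma with Benjamini-Hochberg adjustment, adjusted p = 0.000196). Gdf15, a stress-induced cytokine, fell in PMN-MDSCs from 44.2 and 29.1 to 8.73 and 6.25 and had 18.3 and 16.9 with vehicle and 16.9 and 25.2 with CXD101 in M-MDSCs (difference -2.35 ± 0.33). Gm5483, a stefin-like cysteine protease inhibitor with near-identical copies, went from 1011 and 1379.7 to 264 and 269 in PMN-MDSCs and overlapped between treatments in M-MDSCs. Rnase2a, a ribonuclease of the eosinophil family with near-identical copies, went from 34.1 and 50.9 to 8.605 and 3.94. Akr1b3, an aldose reductase, had values of 7.75 and 17.2 with vehicle and 5.64 and 3.82 with CXD101, and its vehicle libraries were far apart.

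Of 21 macrophage markers tested, the difference was called lower for 8 and higher for 1, against 6.76% and 7.24% of all genes, with a median of -0.52. In PMN-MDSCs 13 fell (9.57% of all genes did) and 1 rose, and in M-MDSCs 6 fell (2.77%) and 3 rose. Mertk, a receptor for dying cells, went from 9.29 and 9.41 to 1.64 and 1.11 FPKM in PMN-MDSCs and from 5.31 and 5.24 to 3.77 and 3.59 in M-MDSCs (difference -1.71). Csf1r, the receptor of the macrophage growth factor, fell in PMN-MDSCs from 159.9 and 145 to 72.4 and 71.4, with 123 and 123 with vehicle and 103 and 104 with CXD101 in M-MDSCs (difference -0.82). Marco, a scavenger receptor, rose in M-MDSCs from 8.97 and 11.4 to 18.04 and 25.04 and had 21.8 and 16.98 with vehicle and 11.1 and 15.1 with CXD101 in PMN-MDSCs (difference -1.54). The complement genes C1qb and C1qc fell in both subsets, with a called difference for C1qc (-0.68). Spp1, which encodes osteopontin, fell in both, with changes of -1.91 and -1.39 and no called difference.

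The summed FPKM of the macrophage list was 1225 to 1244 with vehicle and 966 to 974 with CXD101 in M-MDSCs, and 1638 to 1841 and 788 to 812 in PMN-MDSCs. Folr2, Timd4 and Clec4f, markers of resident macrophages and Kupffer cells, were listed at 0 in all 8 libraries. The part of macrophages in the PMN-MDSC gate in these values was not tested. Lysosomal genes with a called difference had the same direction. Atp6v0d2, a subunit of the vacuolar proton pump, went from 85.1 and 84.1 to 6.84 and 8.03 in PMN-MDSCs and from 10.9 and 11.5 to 2.196 and 3.17 in M-MDSCs, and Ctsk, which encodes cathepsin K, from 7.66 and 8.12 to 0.7603 and 1.11 and from 4.76 and 4.82 to 1.76 and 2.09. Both differences were called (-1.61 and -1.22), and so was that of Lgmn. With 3 of 36 lysosomal genes called lower, the share was near the 6.76% of all genes, and the list median was -0.10. Itgax, which encodes CD11c, fell in both subsets and more in PMN-MDSCs, from 46.2 and 42.03 to 9.25 and 8.52.

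CC chemokine ligands attract monocytes and T cells. Of 11 tested, the difference was called lower for 4 and higher for 0 (1 at an unadjusted limma p under 0.05), against 6.76% and 7.24% of all genes, with a median of -0.69. In PMN-MDSCs 8 fell (9.57% of all genes did), and in M-MDSCs 5 (2.77%). Ccl2, the main ligand of CCR2, went from 92.7 and 81.9 to 14.3 and 16.6 FPKM in PMN-MDSCs and from 31.1 and 33.9 to 16.7 and 14.5 in M-MDSCs, so that the vehicle levels, higher in PMN-MDSCs, met under CXD101 (difference -1.41 ± 0.15, limma with Benjamini-Hochberg adjustment, adjusted p = 0.000729). Ccl5, Ccl7 and Ccl22 had differences of -1.14, -1.06 and -0.93, and the call of Ccl7 was lost under several alternatives. Ccl3 had values of 105 and 93.9 with vehicle and 53.2 and 43.4 with CXD101 in M-MDSCs and 602 and 554 with vehicle and 434 and 411 with CXD101 in PMN-MDSCs, a difference of 0.58 that stayed under the fold limit. Of 4 CXC chemokine ligands tested, the difference was called higher for 2 and lower for 0, with estimates above 0 for 2. The higher calls were the CXCR2 ligands Cxcl2 and Cxcl3, which attract neutrophils, and each was lost under at least 1 alternative. Cxcl3 rose from 36.9 and 40.1 to 159 and 152 in PMN-MDSCs and from 5.02 and 3.16 to 9.65 and 9.83 in M-MDSCs, and Cxcl2 had a difference of 0.68. Ccrl2, an atypical receptor that binds chemerin, fell in PMN-MDSCs from 25.96 and 24.1 to 12.8 and 10.5, with 3.35 and 2.595 with vehicle and 4.93 and 4.22 with CXD101 in M-MDSCs.

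Serine and one-carbon synthesis supplies carbon units for nucleotides. Of its 9 genes tested, 5 had a called lower response in PMN-MDSCs and 0 a higher one (0 also at an unadjusted limma p under 0.05), against 6.76% and 7.24% of all genes, the median difference was -0.70 and the estimates of all 9 were below 0. In M-MDSCs 0 were called (3 at an unadjusted limma p under 0.05), and 4 fell in PMN-MDSCs. Mthfd1, a folate enzyme, had FPKM values of 14.9 and 13.4 with vehicle and 7.59 and 7.77 with CXD101 in PMN-MDSCs, against 37.3 and 33.9 with vehicle and 36.8 and 37.4 with CXD101 in M-MDSCs. The difference was -0.86 ± 0.12 (limma with Benjamini-Hochberg adjustment, adjusted p = 0.00208). Mthfd1l, Shmt2 and Psat1 fell likewise (differences -0.87, -0.78 and -0.74), and Phgdh, the first enzyme of the path, had -0.49, which did not pass.

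Of 79 cytosolic ribosomal protein genes, 7 had a called lower response in PMN-MDSCs, close to the 6.76% of all genes, and 0 a higher one. At an unadjusted limma p under 0.05 without the fold limit, 64 were lower and 0 higher, against 18.7% and 17.4% of all genes, with a median difference of -0.35 and estimates above 0 for 2. Rps2 went from 1529.8 and 1249 to 809.7 and 728 FPKM in PMN-MDSCs and from 2684 and 2817 to 2873 and 2926 in M-MDSCs, with no overlap in PMN-MDSCs (difference -0.92 ± 0.14). Ribosomal genes have many processed pseudogenes that may share reads, and Rpl26 was listed at 0 in 1 PMN-MDSC library with CXD101. Hspd1 and Hspe1, the chaperonin pair of the mitochondrion, went from 96.3 and 100.4 to 53.3 and 50.2 and from 91.2 and 96.4 to 45.5 and 45.1 in PMN-MDSCs and had changes of 0.04 and -0.13 in M-MDSCs. Their differences were -0.96 and -0.91 (limma with Benjamini-Hochberg adjustment, adjusted p = 0.000642 and 0.000444). Of 23 chaperone and unfolded-protein genes 4 were lower and 2 higher (6.76% and 7.24% of all genes), the latter being Trib3 (7.66 and 6.94 to 17.5 and 15.5 in PMN-MDSCs) and Chac1, both targets of the stress factors ATF4 and CHOP. Atf4 itself had a difference of -0.37, under the fold limit.

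The respiratory chain list had 3 called lower, a share below the 6.76% of all genes, and 0 higher of 76 (40 and 1 at an unadjusted limma p under 0.05), with a median difference of -0.28. DNA replication had 3 called lower and 0 higher of 29 (17 and 0 unadjusted), with a median of -0.37, and the lower calls ranged from 1 to 6 when 1 library was left out (1 without CXD101_M replicate 1, 6 without Vehicle_P replicate 2). Atp5g1, a subunit of the ATP synthase ring, went from 184 and 150.3 to 87.1 and 74.4 in PMN-MDSCs, and Gins2, a part of the replicative helicase, from 17.5 and 19.1 to 10.3 and 8.59. Mcm3, a helicase subunit, had 112 and 118 with vehicle and 145 and 137 with CXD101 in M-MDSCs and 41.3 and 38.5 with vehicle and 33.8 and 29.5 with CXD101 in PMN-MDSCs, with neither change called and a difference of -0.62. Of 26 mitosis genes, 0 were called in either direction (5 higher and 0 lower at an unadjusted limma p under 0.05), with a median difference of 0.08. Mki67, the proliferation marker Ki-67, had 47.04 and 49.3 FPKM with vehicle and 50.5 and 50.9 with CXD101 in PMN-MDSCs.

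**Figure D4:**
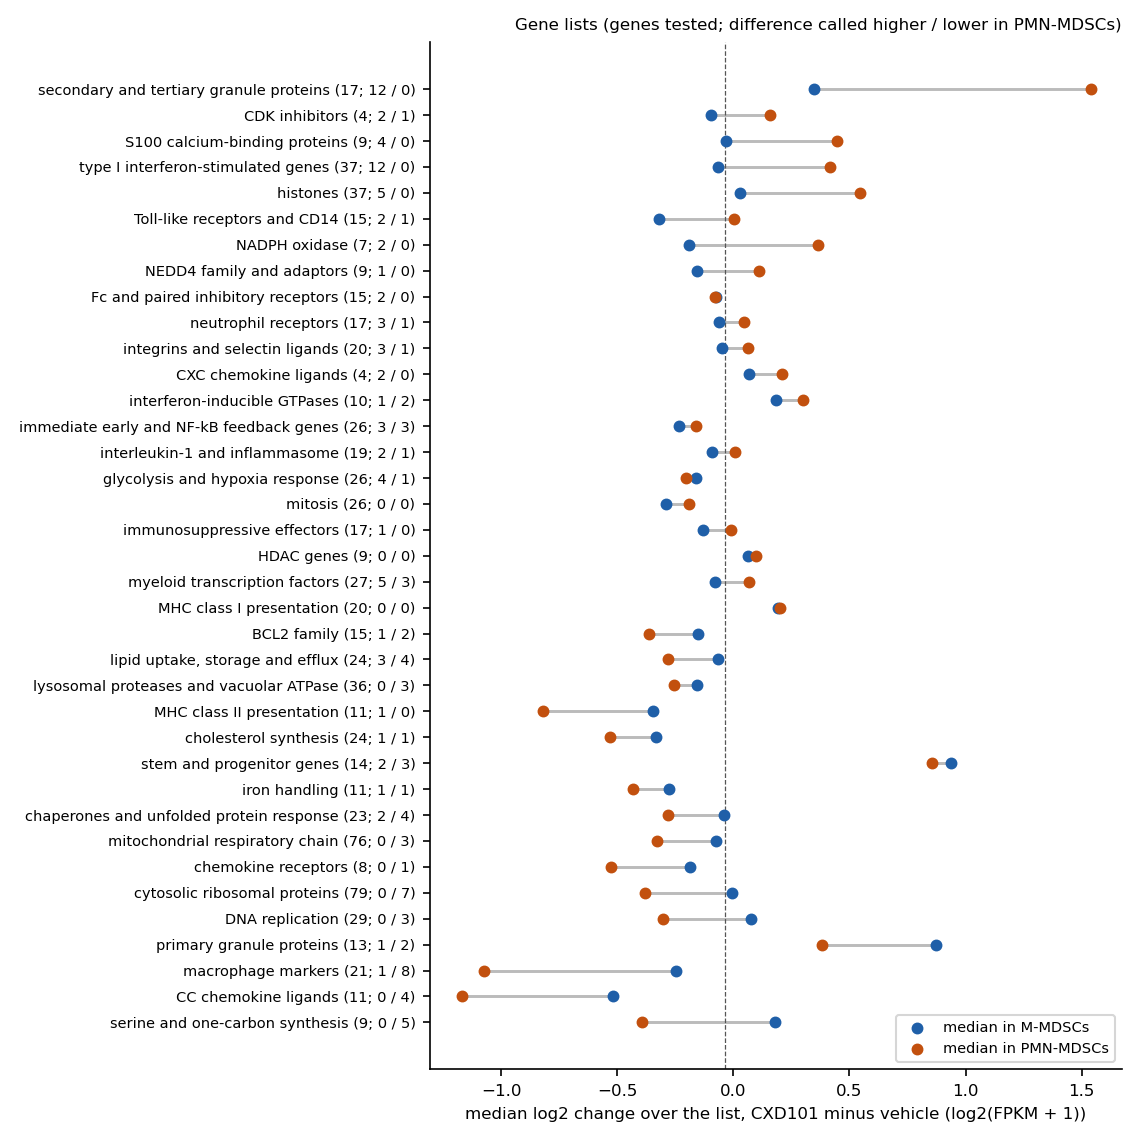
Median log2 change under CXD101 (horizontal axis, log2(FPKM + 1)) over the tested genes of 37 function lists in M-MDSCs (blue) and PMN-MDSCs (orange), ordered by the median difference; labels give the genes tested and the called differences, higher / lower in PMN-MDSCs, and the dashed line is the PMN-MDSC median of all genes tested. The secondary and tertiary granule list has the largest distance between the points, and the serine, CC chemokine and macrophage lists lie at the lower end.

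Lipid and sugar handling genes changed in both directions. Dgat1 and Dgat2, which make triglycerides, rose in PMN-MDSCs from 68.9 and 66.3 to 189 and 186 and from 28.1 and 27.6 to 114 and 114 FPKM, and had changes of 0.25 and 0.83 in M-MDSCs (differences 1.20 and 1.16, limma with Benjamini-Hochberg adjustment, adjusted p = 0.000196 and 0.000331). Lpl, the lipoprotein lipase, fell in both, from 286 and 281 to 90.5 and 83.8 in PMN-MDSCs and from 549.8 and 549 to 355 and 364 in M-MDSCs, and Msr1, a scavenger receptor for modified lipoprotein, fell in PMN-MDSCs alone (difference -1.05). Scd1, a fatty acid desaturase, fell in both without a called difference (-2.78 and -2.55). Of 26 glycolysis and hypoxia genes, 4 had a higher response in PMN-MDSCs and 1 a lower one, against 7.24% and 6.76% of all genes. Slc2a3, a glucose transporter, rose in PMN-MDSCs from 26.6 and 28.7 to 103 and 102 and stood at 3.75 and 4.81 with vehicle and 4.11 and 4.87 with CXD101 in M-MDSCs (difference 1.80 ± 0.16).

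Of 37 histone genes, 12 rose in PMN-MDSCs (11.5% of all genes did) and 2 in M-MDSCs (4.5%), and 5 had a called higher response (7.24%) with 0 lower (1 at an unadjusted limma p under 0.05, median difference 0.39). The higher calls came to 2 without CXD101_P replicate 2, and to 9 with 1 lower without Vehicle_P replicate 2. The linker histone H1f0, known as a histone that rises with HDAC inhibitors and differentiation, went from 26.6 and 26.3 to 113 and 126 FPKM in PMN-MDSCs and from 34.4 and 34.2 to 60.4 and 64.5 in M-MDSCs. The 4 libraries with CXD101 lay above all vehicle libraries, and the rise was larger in PMN-MDSCs (difference 1.29 ± 0.10, limma with Benjamini-Hochberg adjustment, adjusted p = 0.000247). Hist1h1c, another linker histone, rose in PMN-MDSCs alone, from 69.2 and 55.5 to 196 and 259. The other calls (Hist1h1b, Hist1h1d and Hist1h4i) were each lost under at least 1 alternative. Replication-dependent histone mRNA lacks a poly(A) tail in most cells, so poly(A) libraries measure only part of it.

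Cell cycle inhibitors and death genes included calls of both signs. Of 4 CDK inhibitor genes tested, Cdkn2d and Cdkn1b, which encode p19 and p27, rose in PMN-MDSCs alone, Cdkn2d from 45.1 and 44.4 to 73.7 and 78.1 FPKM (differences 0.93 and 0.65), and the call of the Cdkn1b difference was lost under several alternatives. Cdkn1a, which encodes p21, fell in PMN-MDSCs from 217 and 187 to 124 and 112 and stood at 163 and 165 with vehicle and 179 and 186 with CXD101 in M-MDSCs (difference -0.93 ± 0.12, limma with Benjamini-Hochberg adjustment, adjusted p = 0.00145). Bax, a mediator of apoptosis, fell from 302 and 262 to 159 and 170.0 in PMN-MDSCs alone, and Bmf, a sensitizer of the same family, rose from 4.44 and 4.96 to 12.6 and 12.7.

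The genes the study followed in M-MDSCs were read in both subsets. Ccr2 had 147 and 137 FPKM with vehicle and 137 and 125 with CXD101 in M-MDSCs, and 40.7 and 35.7 with vehicle and 27.5 and 27.99 with CXD101 in PMN-MDSCs, and neither the changes nor the difference of -0.32 ± 0.12 passed. Nedd4, a HECT-type ubiquitin ligase, rose in both subsets and more in PMN-MDSCs, from 11.9 and 9.03 to 20.3 and 19.3 FPKM in M-MDSCs and from 5.504 and 5.53 to 20.8 and 20.7 in PMN-MDSCs (difference 0.87 ± 0.17, limma with Benjamini-Hochberg adjustment, adjusted p = 0.00759). Trim6 rose in both (0.93 and 1.56), and its difference of 0.63 did not pass, nor did that of Trim32 (-0.25). Of 9 HDAC genes tested, 0 had a called difference (1, lower, at an unadjusted limma p under 0.05), against 14% of all genes. Hdac1, Hdac2 and Hdac3 had differences of -0.16, -0.29 and 0.12.

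MS-275, another inhibitor of the same enzymes, was given to 2 further groups, and its libraries share the vehicle libraries with the comparison above, so their values are set side by side without a test. Prg2 had 113 and 133 FPKM with MS-275 in M-MDSCs and 19.3 and 28.3 in PMN-MDSCs. Gstm1 had 428 and 417 in M-MDSCs and 374 and 375 in PMN-MDSCs, Ngp 331 and 372 and, in PMN-MDSCs, 14556 and 14306. Ltf had 29.1 and 31.8 in M-MDSCs and 4077 and 4098 in PMN-MDSCs, and Sytl3 0.573 and 1.19 and, in PMN-MDSCs, 15.4 and 17.7. Each of these values lay on the same side of the vehicle libraries as with CXD101 in the subset that had the larger change, while Ngp and Ltf in M-MDSCs were lower with MS-275 than in the vehicle and CXD101 libraries of M-MDSCs. Lgals6, which rose with CXD101 in PMN-MDSCs, had 0 and 0.643 FPKM there with MS-275, against 0.581 and 0.373 with vehicle.

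Markers of cells outside the gates were read as sums over each list. The hepatocyte list was at 48.6 to 64.7 summed FPKM in M-MDSCs and 157 to 234 in PMN-MDSCs, almost all of it from Trf, which encodes transferrin, and 10 of its 15 genes were listed at 0 in all 8 libraries. Trf had 161 and 155 with vehicle and 230.4 and 232 with CXD101 in PMN-MDSCs. Erythroid markers summed to at most 0.339, and T, B and NK cell markers to at most 13.9. Platelet markers were 9.78 to 10.9 and 24.9 to 26.8 in M-MDSCs and 21.2 to 39.7 and 42.3 to 46.8 in PMN-MDSCs. Dendritic cell markers summed to 18.2 to 23.8 with vehicle and 6.55 to 7.24 with CXD101 in PMN-MDSCs, and to 5.73 to 5.86 and 1.72 to 3.14 in M-MDSCs. Stromal and endothelial markers went from 9.39 to 10.1 with vehicle to 27.3 to 27.5 with CXD101 in M-MDSCs. In PMN-MDSCs they went from 18.9 to 19.7 to 55.3 to 56.3. Of the 9 genes of this list, 7 stayed under 1 FPKM in all 8 libraries (Col1a2, Dcn and Lum at 0). Only Col1a1 and Pecam1 were tested, so the sums rest mainly on these genes. Basophil and mast cell markers stood at 9.65 to 13.6 and 14.3 to 19.3 in M-MDSCs and at 69.2 to 93.9 and 75.9 to 76.2 in PMN-MDSCs, with Mcpt4 and Cma1 listed at 0 in all 8. The parts of such cells in the results above were not tested.

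**Figure D5:**
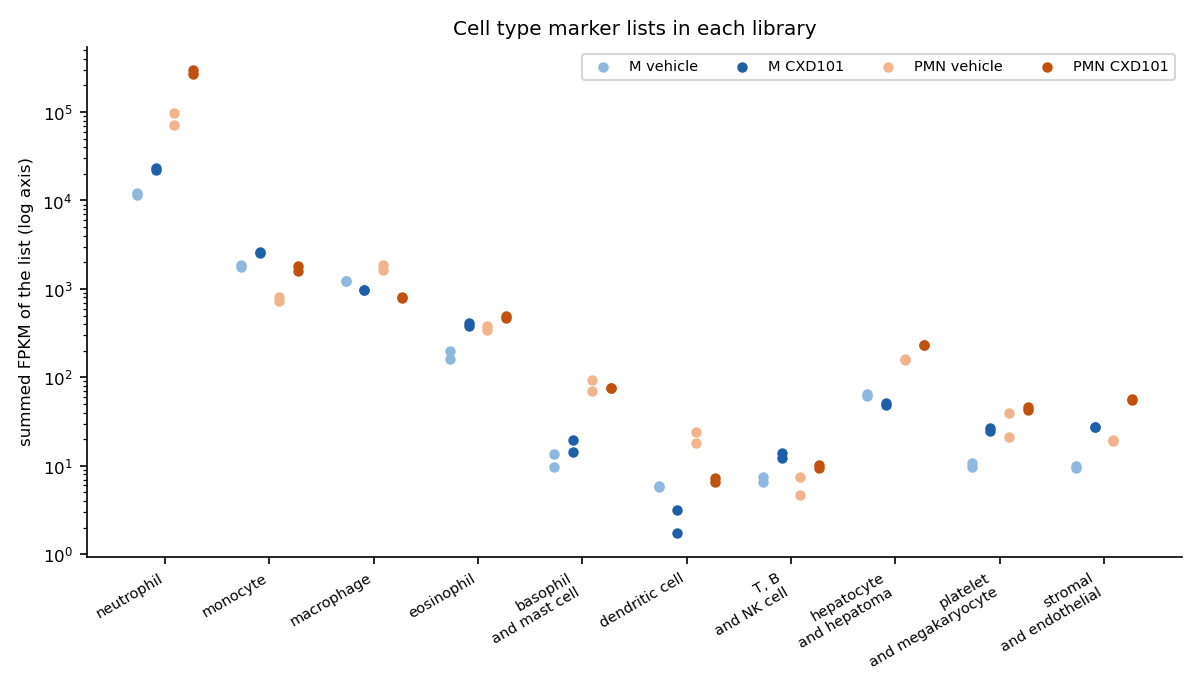
Summed FPKM (log axis) of 10 cell type marker lists in each of the 8 libraries, with 1 point per library, coloured by subset and treatment. The neutrophil list is highest in PMN-MDSCs with CXD101, the eosinophil list is higher with CXD101 in both subsets, and the macrophage list is lower with CXD101 in both.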

How the data were processed

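RNA from the sorted cells was made into TruSeq stranded mRNA libraries and sequenced as 101-base single-end reads. The authors deposited 1 table of FPKM values per library, and their processing notes name TopHat2 2.1.1, Bowtie2 2.2.8, SAMtools 0.1.18, Cuffdiff 2.2.1 and the mm10 build without roles. Annotation, filters and the strand setting are not given in the sources used here. FPKM was analysed as log2(FPKM + 1), a scale that understates changes of genes with low values. Genes reaching 1 FPKM in 2 or more of the 8 libraries were kept. One limma model (3.58.1, R 4.3.3) with a mean for each of the 4 groups and eBayes with an intensity trend gave all contrasts, with Benjamini-Hochberg adjustment over the 11351 genes. Tables and figures were made with Python 3.11.15, pandas 2.3.3 and matplotlib 3.10.9. On simulated data, 168 of 200 genes with a log2 difference of 1 were called in the right direction among 11351 genes, and 13 unchanged genes were called. The 200 were drawn from genes with every group mean above 2 on log2(FPKM + 1), so the share found does not cover genes near 0. With 2 libraries in each group, precision rests on a spread shared across genes.

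Genes were named by a rule. Candidates were called genes with a group mean of at least 5 FPKM, without small RNAs recognised by the start of the symbol. Their CXD101 and vehicle libraries did not overlap in the subset with the larger change. Named were the 10 highest and 10 lowest differences among them, then opposite genes. Up to 5 called members of each list with members that define its function, markers, and the genes the study followed came next. The short noncoding gene Bc1 (chromosome 7, 144914470 to 144914637, GRCm38) passed the symbol rule. The members and lists were chosen with earlier results of these data known. Alternatives covered the pseudocount, filter, scaling, fold limit, trend, replicate block, 12 libraries and leaving out each library. Some items are not reported here.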

Additional observations from a re-analysis of the deposited data

Results flagged for a closer look

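The responses of the 2 subsets differed by the test of the difference itself (limma with Benjamini-Hochberg adjustment), with 822 genes higher and 767 lower in PMN-MDSCs. The genes named for the lowest differences were Prg2 (-3.96), Epx (-3.27), Gpnmb (-2.37), Gdf15 (-2.35), Gm5483 (-2.12), Rnase2a (-1.95), Plet1 (-1.94), Mt2 (-1.86), Akr1b3 (-1.86) and Id3 (-1.84), as log2 differences. Those named for the highest were Bc1 (3.4), Ngp (3.05), Sytl3 (3.04), Ltf (2.76), Sema4f (2.7), Camp (2.67), Lgals6 (2.64), S100a5 (2.55), Prss16 (2.52) and Bcl2l14 (2.41). Genes with opposite called changes, beside Epx, were AA467197 (1.78), Tgm1 (1.55), Mthfs (1.3), Ccnd1 (-1.25) and Gstm1 (-1.62), and AA413626 (2.45), which stayed under 3 FPKM and falls outside the rule for named genes. With 2 libraries in each group, no group was large enough for a search for single outlying libraries.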

How the results depend on the processing

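All 151 named genes with a called difference kept its sign at each alternative in which they were tested, and 104 kept the call in each of these. A gene that a stricter filter removed, as the minimum of 5 FPKM did for Cp, was not counted as a lost call. A fold limit of 2 left 311 genes higher and 170 lower, with 1 opposite, 330 called in PMN-MDSCs only, 37 in M-MDSCs only, 169 up and 81 down in M-MDSCs, and 563 up and 292 down in PMN-MDSCs. The adjusted p alone gave 1258, 1335, 110, 1792, 258, 970, 1142, 2497 and 3016 in the same order. Opposite genes numbered 16 with a pseudocount of 0.1 and 11 with quantile normalization, and 339 genes rose in M-MDSCs at a minimum of 5 FPKM. Quantile normalization reversed the difference of S100a8 to -1.38 (0.50 as reported, not called), and the cause was not tested. Rescaling without S100a8 and S100a9 made 45.3% of called differences higher, against 51.7%.

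Leaving out 1 library at a time gave 576 to 879 genes higher, 571 to 844 lower, 6 to 12 opposite (12 without Vehicle_P replicate 2), 801 to 1142 in PMN-MDSCs only, 90 to 121 in M-MDSCs only, 359 to 531 up and 263 to 324 down in M-MDSCs, and 1148 to 1349 up and 1027 to 1225 down in PMN-MDSCs. Where this left 1 library in a group, it was assumed to vary like the other groups. Akr1b3 lost its call with no filter (limma, Benjamini-Hochberg, adjusted p = 0.0602) and without Vehicle_M replicate 2, CXD101_M replicate 2 or CXD101_P replicate 2. Cdkn1b and Igtp lost the call with the block by mouse number (adjusted p = 0.0579 and 0.063), with no filter (0.0617 for both) and in 6 fits each that left out 1 library, Gbp3 with a pseudocount of 0.1, no filter or no trend (0.0717, 0.104 and 0.0583) and in 7 such fits, and Ccl7 with a pseudocount of 0.1 or no filter (0.0616 and 0.0702) and in 4 (all limma, Benjamini-Hochberg). Leaving out 1 library also ended the calls of Mcm3 (4 fits), Cxcl3, Tlr4 and Alox15 (2 each), Kit and Egr2 (without Vehicle_M replicate 1) and Cxcl2 (without CXD101_M replicate 1). With all 8 libraries kept, Cxcl3 lost its call with a pseudocount of 0.1 or no filter (limma, Benjamini-Hochberg, adjusted p = 0.0655 and 0.0512). Under the fold limit fell the differences of Kit with a pseudocount of 0.1 (0.55) and of Tlr4 when rescaled without S100a8 and S100a9 (0.58). Same-numbered libraries did not deviate together (r = -0.111 for vehicle and -0.139 for CXD101 between subsets, across genes), so the numbers were not taken as pairs. With the replicate block, 806 genes were higher and 760 lower, and with the block by mouse number 748 and 711. A crossed pairing, chosen after seeing the data, gave 780 and 759. Median differences of the stem and progenitor list changed sign with a pseudocount of 0.1 (0.11, against -0.20).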

Other observations

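Further lists had few called differences and are given by their members. Gbp3 and Gbp5, interferon-inducible GTPases of cell defence, rose in M-MDSCs alone, Gbp3 from 2.78 and 3.56 to 6.72 and 6.07 FPKM, with 2.11 and 2.07 with vehicle and 2.47 and 1.07 with CXD101 in PMN-MDSCs (differences -1.04 and -0.98). Igtp, of the same list of 10, had a higher response in PMN-MDSCs (0.64). The calls of Gbp3 and Igtp were each lost under several alternatives. Nt5e, which encodes the adenosine-producing enzyme CD73, rose in both subsets and more in PMN-MDSCs, from 18.4 and 25.5 to 101 and 115 there and from 0.986 and 0.882 to 2.53 and 2.13 in M-MDSCs (difference 1.48). It was the 1 called difference of 17 immunosuppressive effectors, against 14% of all genes. The differences of Arg1 (-0.36) and Cd274, which encodes PD-L1 (-0.56), did not pass. Csf3r, the receptor of the granulocyte growth factor, had a called rise in M-MDSCs alone, from 8.75 and 10.5 to 21.02 and 20.6. In PMN-MDSCs it had 214 and 237 with vehicle and 266 and 267 with CXD101, a rise that was not called.

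H2-Oa, a modulator of MHC class II loading, rose in both subsets and more in PMN-MDSCs (1.12 and 2.76), and Cd74, the invariant chain, fell in both (-1.57 and -1.19) with no called difference. Itgb2l, an integrin subunit related to CD18, rose in PMN-MDSCs from 45.7 and 54.4 to 235 and 251 and had changes of 0.53 and 2.26. Il18rap, a subunit of the interleukin-18 receptor, rose in PMN-MDSCs alone (difference 1.17). Cp, which encodes the copper oxidase ceruloplasmin, fell in M-MDSCs alone, from 4.796 and 3.88 to 0.546 and 0.456 (difference 1.24). Egr1, an immediate early factor, rose in PMN-MDSCs from 41.6 and 40.03 to 85.5 and 84.7, while Egr2 fell in both (-0.60 and -1.26). Of 42 small RNAs tested, 7 had a called difference, against 14% of all genes. Of the 45 genes that were at 0 in some libraries and above 20 FPKM in others, 41 were small RNAs.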
